A study of Mus musculus with 9 samples.

Results

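The genes described here make, regulate, release, store or export cholesterol. A list of 31 such genes was set by name, and every probe set annotated to exactly 1 of these symbols was taken from the table of 9 mouse arrays. Probe sets were found for 29 of the 31, and those 29 passed the filter on low signals, among 13748 genes tested and 18193 annotated. They comprise 17 of 18 enzymes of the synthesis pathway, 5 regulators and 7 of 8 genes that handle finished cholesterol. Acat2, the cytosolic thiolase that makes acetoacetyl-CoA, and Soat1, which esterifies cholesterol for storage, were not analysed here.

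RNA came from cells taken by laser capture microdissection from mice and described by the submitters as neural crest cells (NCCs) or their derivatives. The groups were E8.5 embryos while the neural tube closes, E13.5 dorsal root ganglia and the adrenal medulla of adults at P90 (3 months), with 3 arrays each, labelled biological replicates. No treatment or engineered allele is named for any group. Strain, sex and the number of animals behind each capture are not given in the sources used here, so p-values measure the spread between these arrays. Stage and tissue change together, so their parts in any difference cannot be told apart, and in such bulk samples fewer cells of a type and less RNA per cell cannot be told apart either.

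Cells make cholesterol from acetyl-CoA, first through mevalonate to isoprenoid units, then to squalene and lanosterol, and finally through a series of demethylations, reductions and double-bond shifts. When sterol in the endoplasmic reticulum is scarce, SCAP escorts the SREBP transcription factors to the Golgi, where they are cleaved and freed to activate genes of synthesis and uptake, and INSIG proteins hold SCAP back when sterol is plentiful. Cholesterol taken up with lipoproteins is released in lysosomes, and a surplus is stored as esters or exported to apolipoproteins. In the adrenal gland, cortical cells use cholesterol for steroid hormones, whereas the chromaffin cells of the medulla make catecholamines.

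Promoter sequences of these genes were searched for motifs tied to sterol control. Windows from 250 bases before to 50 bases after the annotated start were taken from RefSeq (GRCm38.p6) and were given for 26 of the 31 listed genes, 37 windows in all. Fdft1, Fdps, Sqle, Npc1 and Stard4 had no window, so nothing is known here of their motifs. Both strands were searched for CCAAT, the box bound by NF-Y, a cofactor of SREBP, for the sterol response element core TCACNCCAC and for the GC box GGGCGG, none of which contains another. The 4 windows printed below are those of Hmgcs1, which alone held the sterol response element core, of both synthesis genes that rose at P90, and of an exporter that rose without a CCAAT match. They read 5′ to 3′ on the gene's own strand, and capitals mark the sterol response element core and CCAAT on either strand (ATTGG is CCAAT on the opposite strand).
Hmgcs1, chr13:119690101-119690400, plus strand: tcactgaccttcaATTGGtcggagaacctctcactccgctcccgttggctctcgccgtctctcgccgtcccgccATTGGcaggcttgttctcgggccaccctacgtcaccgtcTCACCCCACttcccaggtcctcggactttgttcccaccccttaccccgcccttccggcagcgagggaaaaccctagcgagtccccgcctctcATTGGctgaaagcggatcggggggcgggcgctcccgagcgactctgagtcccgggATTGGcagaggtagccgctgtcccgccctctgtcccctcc
Dhcr7, chr7:143829964-143830263, plus strand: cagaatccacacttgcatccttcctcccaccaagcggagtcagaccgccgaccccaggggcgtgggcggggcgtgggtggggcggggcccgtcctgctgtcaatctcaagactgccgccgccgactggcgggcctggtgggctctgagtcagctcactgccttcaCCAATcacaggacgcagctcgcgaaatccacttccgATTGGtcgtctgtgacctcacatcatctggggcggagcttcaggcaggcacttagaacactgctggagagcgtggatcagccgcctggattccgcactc
Ebp, chrX:8193463-8193762, minus strand: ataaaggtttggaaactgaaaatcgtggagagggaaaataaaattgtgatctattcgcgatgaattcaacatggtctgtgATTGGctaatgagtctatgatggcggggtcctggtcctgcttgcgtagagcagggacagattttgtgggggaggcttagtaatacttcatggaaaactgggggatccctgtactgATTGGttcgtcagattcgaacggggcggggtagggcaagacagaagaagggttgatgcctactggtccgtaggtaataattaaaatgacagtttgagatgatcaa
Abca1, chr4:53159846-53160145, minus strand: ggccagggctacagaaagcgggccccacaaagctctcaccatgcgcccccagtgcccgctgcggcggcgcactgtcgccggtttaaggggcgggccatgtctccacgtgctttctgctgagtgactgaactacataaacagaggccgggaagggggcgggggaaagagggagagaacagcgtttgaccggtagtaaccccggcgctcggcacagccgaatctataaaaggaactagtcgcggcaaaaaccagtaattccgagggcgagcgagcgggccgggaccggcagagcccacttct

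CCAAT was found in at least 1 window of 14 of 15 synthesis genes (93.3%), in 14 of their 18 windows (77.8%), against 37.4% of all 32851 windows and 41.1% of 27025 genes in the table. The exception was Acat2. It was found for 4 of 5 regulators and for 3 of 6 handling genes. GC boxes were in 15 of 18 synthesis windows (83.3%), in 8 of 10 windows of the regulators and in 5 of 9 of the handling genes, against 35.7% of all windows. The sterol response element core was found in 1 of the 37 windows, that of Hmgcs1, and in 1.24% of all windows. In Hmgcs1 it began 137 bases before the start, with CCAAT matches at 237, 176 and 45 bases before it and 10 after it. Dhcr7 had 2 CCAAT matches in 1 of its 3 windows, at 85 and 49 bases before the start, and Ebp had 2, at 170 and 55. A match describes letters only, and binding was not measured here.

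The stages were compared with each other in 1 limma fit, and a gene is said to have risen or fallen where its p adjusted over all genes was under 0.05. Of the 17 synthesis enzymes, Dhcr7 and Ebp were the only ones called in any comparison. At E13.5 against E8.5, 0 rose and 0 fell, and 0 reached an unadjusted p under 0.05, where 9.27% of all genes rose and 7.22% fell. At P90 against E13.5, 2 rose and 0 fell (background 3.54% and 5.94%), and at P90 against E8.5 the same 2 genes rose and 0 fell (10.9% and 12.5%). The median log2 change of the enzymes was -0.09, -0.21 and -0.14 in the 3 comparisons, against 0.02, -0.05 and 0.00 over all genes. On counts this small nothing is read about the enzymes as a group. The F-test for any difference between stages called 2 of the 17, against 26.3% of all genes.

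**Figure D1:**
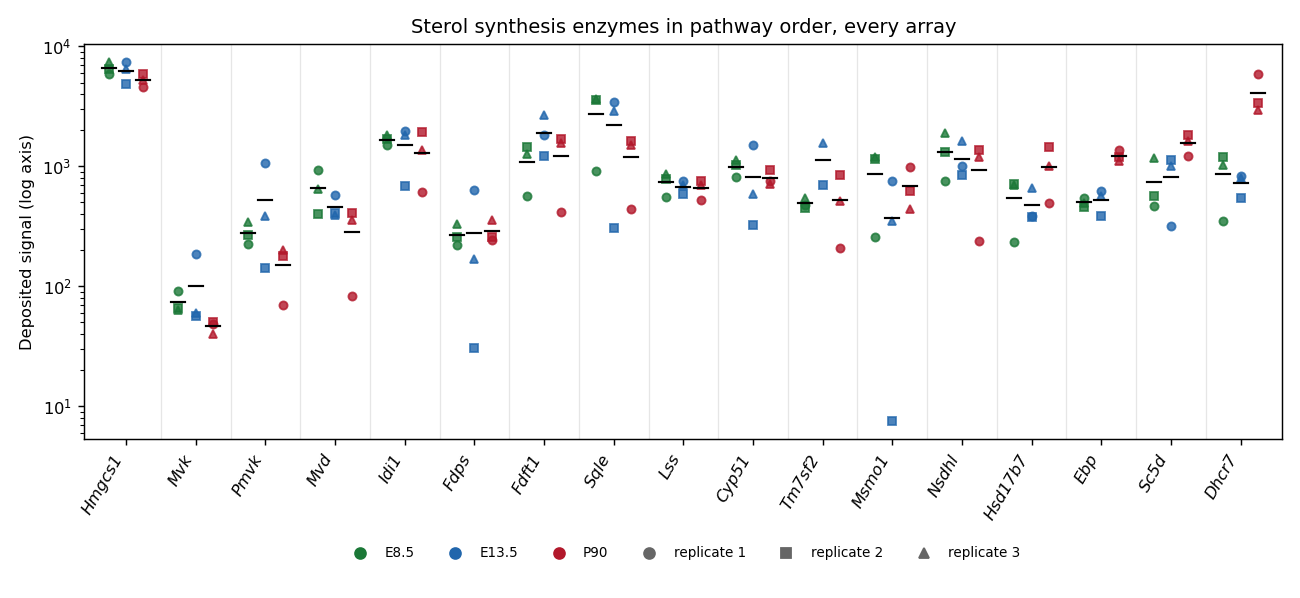
Deposited signal (log axis) of the 17 synthesis enzymes in pathway order, 1 point per array, with colour for stage, symbol for replicate and a black bar for the stage mean (1 array is missing for Tm7sf2 at E13.5). Most enzymes overlap between stages, while Dhcr7 at P90 (2959 to 5891) and Ebp at P90 (1111 to 1363) lie above all other arrays.

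Dhcr7, the reductase that turns 7-dehydrocholesterol into cholesterol in the last step of the pathway, had the largest rise among the enzymes. Its signal was 351, 1200 and 1034 on the 3 E8.5 arrays, 829, 541 and 806 at E13.5, and 5891, 3370 and 2959 at P90. Every P90 array was thus above every earlier array, while the embryonic stages overlapped. The log2 change was 2.42 ± 0.49 (SE; 5.36-fold, limma adjusted p = 0.00861) at P90 against E13.5 and 2.33 ± 0.49 (5.03-fold, adjusted p = 0.00521) at P90 against E8.5. Leaving out any 1 array kept both calls. At E13.5 against E8.5 the change was -0.09 ± 0.49 (adjusted p = 0.936), with a 95% interval from -1.16 to 0.98.

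Ebp, the isomerase that shifts the sterol ring double bond earlier in the same stretch, rose by less. Its signal was 549, 462 and 495 at E8.5, 624, 384 and 561 at E13.5, and 1363, 1202 and 1111 at P90. The P90 arrays were again all above the others and close together, at 1225 ± 128 (SD, n = 3). The log2 change was 1.26 ± 0.34 against E8.5 (2.39-fold, adjusted p = 0.0201) and 1.23 ± 0.34 against E13.5 (2.34-fold, adjusted p = 0.0445). The call against E13.5 was lost when any 1 of the 9 arrays was left out, with adjusted p up to 0.186 over the alternatives. The call against E8.5 was lost without E8.5 replicate 2 or 3 or P90 replicate 2, with adjusted p up to 0.0904.

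Sc5d, the desaturase that makes the substrate of Dhcr7, showed the same order of arrays but did not pass the test on its brightest probe set. Signals there were 469, 564 and 1166 at E8.5, 315, 1130 and 1006 at E13.5, and 1224, 1823 and 1637 at P90, so that the P90 arrays were above all others by a narrow margin. The log2 change was 1.17 ± 0.52 against E8.5 (adjusted p = 0.134) and 1.09 ± 0.52 against E13.5 (adjusted p = 0.261). A second Sc5d probe set, 1451457_at, tested on its own, read 106, 176 and 216 at E8.5, 73.1, 74.2 and 78.8 at E13.5, and 228, 814 and 536 at P90. On it Sc5d was higher at P90 by 2.40 ± 0.45 against E13.5 (adjusted p = 0.00817 over 24013 probe sets) and by 1.45 ± 0.45 against E8.5 (adjusted p = 0.0411). The other kept Sc5d probe set gave 0.64 ± 0.44 (adjusted p = 0.489) and 0.75 ± 0.44 (adjusted p = 0.261).

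Hmgcs1, Mvk, Pmvk, Mvd and Idi1, which lead through mevalonate to the isoprenoid unit, had lower mean log2 signals at P90 than at either earlier stage, none with a call. Hmgcs1, which condenses acetoacetyl-CoA and acetyl-CoA, had signals of 5850, 6495 and 7393 at E8.5, 7421, 4904 and 6503 at E13.5, and 4571, 5865 and 5288 at P90. Its SE was the smallest of the 17 enzymes: the change at P90 against E8.5 was -0.33 ± 0.27 (adjusted p = 0.414), with a 95% interval from -0.91 to 0.25. Mvk, mevalonate kinase, read 91.4, 66 and 63.1, then 186, 55.9 and 59.7, then 48.4, 50.2 and 40.3. All 3 P90 arrays were below all 6 others, yet the changes of -0.51 ± 0.37 (adjusted p = 0.361) and -0.73 ± 0.37 (adjusted p = 0.301) did not pass.

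Pmvk, phosphomevalonate kinase, read 226, 267 and 341 at E8.5, 1056, 141 and 386 at E13.5, and 70.3, 179 and 202 at P90. Its change at P90 against E13.5 was -1.40 ± 0.62 (adjusted p = 0.214) and became a call without E13.5 replicate 2, at -2.09 (adjusted p = 0.0247). Mvd, which decarboxylates mevalonate diphosphate, read 925, 401 and 646, then 582, 411 and 389, then 82.4, 406 and 355. Its change at P90 against E8.5 was -1.36 ± 0.55 (adjusted p = 0.101), and P90 replicate 1 was far below its partners. Idi1, the isomerase of the isoprenoid unit, gave -0.50 ± 0.50 there (adjusted p = 0.519), and Fdps, which joins these units into farnesyl diphosphate, gave 0.08 ± 0.72 (adjusted p = 0.953).

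In the middle of the pathway the spread within stages was wide. Sqle, the epoxidase that commits squalene to sterols, read 907, 3566 and 3653 at E8.5, 3424, 304 and 2920 at E13.5, and 444, 1631 and 1520 at P90. In each stage 1 array was far below its partners, and the change at P90 against E8.5, -1.13 ± 0.89 (adjusted p = 0.401), had a 95% interval from -3.07 to 0.82. Msmo1, which oxidises the C4 methyl groups for removal, ranged from 7.46 to 757 within E13.5 alone, and its change at E13.5 against E8.5 was -1.95 ± 1.06 (adjusted p = 0.265). Lss, which cyclises oxidosqualene to lanosterol, stayed between 526 and 865 on all 9 arrays, and its change at P90 against E8.5 was -0.14 ± 0.35 (adjusted p = 0.821). Those values are of its brightest probe set. A dimmer one, 1420014_at, read 30.8, 35.3 and 52.2 at E8.5, 24.9, 24.1 and 25.5 at E13.5, and 52.2, 68.5 and 59.3 at P90. It was higher at P90 against E13.5 by 0.89 ± 0.23 (adjusted p = 0.0381 over all probe sets). The other kept Lss probe set, 1426913_at, with E13.5 replicate 2 empty, gave -1.04 ± 0.57 for the same comparison (adjusted p = 0.37).

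The remaining enzymes passed no test on their brightest probe set. Fdft1, squalene synthase, changed by 0.04 ± 0.58 at P90 against E8.5, Cyp51, the lanosterol demethylase, by -0.31 ± 0.50, and Nsdhl, which acts with Msmo1 in C4 demethylation, by -0.73 ± 0.62. Tm7sf2, a sterol reductase, changed by -0.11 ± 0.52, and Hsd17b7, the ketone reductase of the C4 step, by 0.86 ± 0.53. The E13.5 value of Tm7sf2 rests on 2 arrays, 697 and 1566, because the table has an empty cell for replicate 1. Of these 5 genes, the adjusted p at P90 against E8.5 was lowest for Hsd17b7 (0.279). A dim second probe set of Cyp51, 1422534_at, was lower at P90: it read 51.3, 100 and 148 at E8.5, 43.9, 77.3 and 82.7 at E13.5, and 5.52, 39.1 and 9.09 at P90, with a log2 change of -1.81 ± 0.42 at P90 against E8.5 (adjusted p = 0.0112). Its brightest probe set, at 814 to 1137 and 709 to 923 in those stages, gave an adjusted p of 0.711. The other kept Cyp51 probe set, 1422533_at, gave -1.42 ± 0.62 at P90 against E8.5 (adjusted p = 0.132).

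By mean log2 signal, E8.5 was the highest stage for 8 of the 17 enzymes, E13.5 for 4 and P90 for 5, while P90 was the lowest for 9. The stage bars in the figures are means of the signal itself and can order the stages differently. Non-overlapping arrays were seen for 0 of 16 enzymes with all values at E13.5 against E8.5 (35.0% of all genes), for 4 of 16 at P90 against E13.5 (22.3%) and for 5 of 17 at P90 against E8.5 (43.1%). The 3 that lay above at P90 in both comparisons were Ebp, Sc5d and Dhcr7, which act in the closing steps after C4 demethylation, and those below were Mvk in both and Pmvk against E8.5, which act in the mevalonate steps. Hmgcs1, Mvd and Idi1, also of the mevalonate steps, overlapped in both. The shares lie near or below those of all genes, so no order along the pathway is read from them. The placing of these genes was noticed in the values and was not tested.

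**Figure D2:**
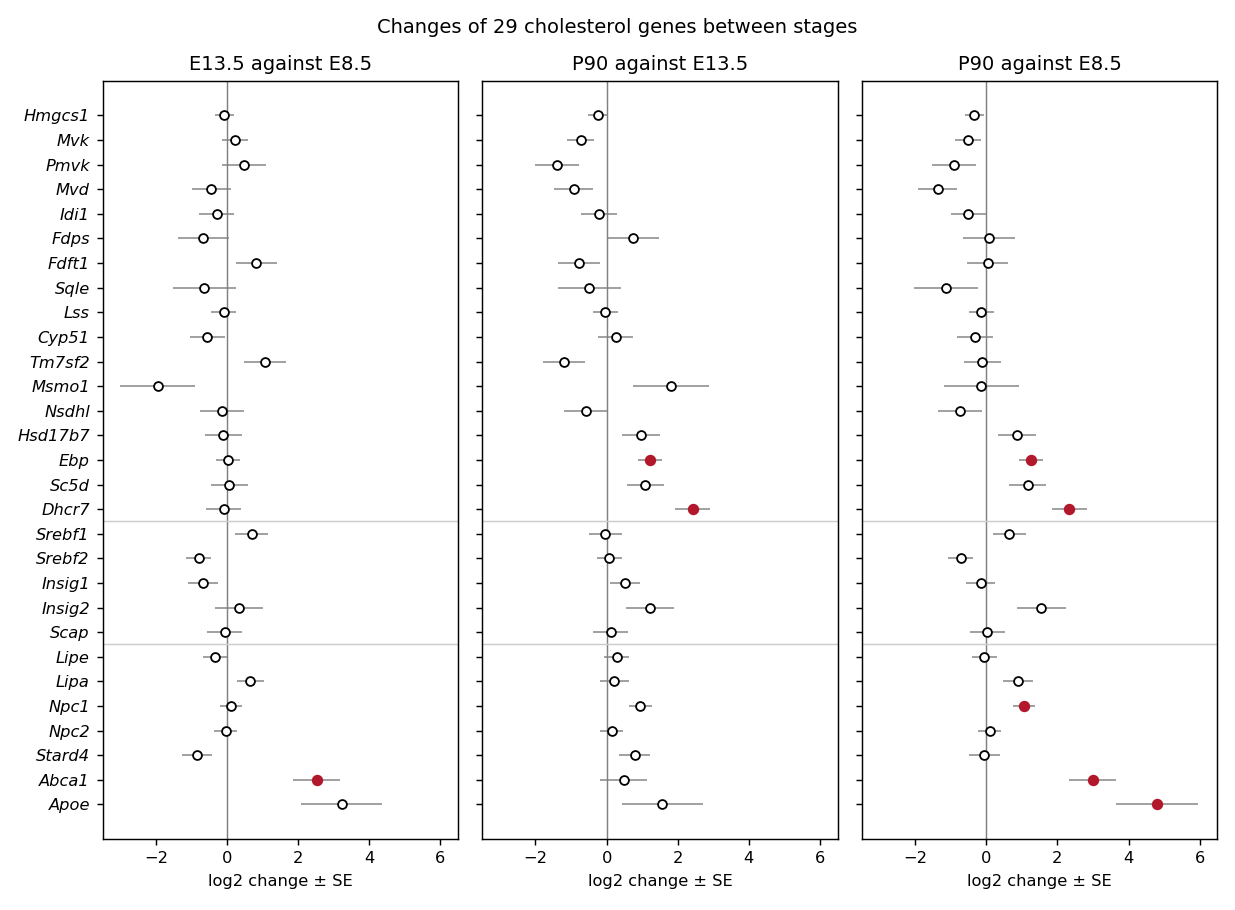
Log2 change ± SE (horizontal axis) of the 29 genes in each comparison, with grey lines between the synthesis enzymes, the regulators and the handling genes. Filled red points have an adjusted p under 0.05: Abca1 alone at E13.5 against E8.5, Ebp and Dhcr7 at P90 against E13.5, and Ebp, Dhcr7, Npc1, Abca1 and Apoe at P90 against E8.5.

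None of the 5 regulators was called in any comparison by limma, where 3.54% to 12.5% of all genes were called in each direction, so that a count of 0 among 5 lies near the background. At an unadjusted p under 0.05, 1 was lower at E13.5 against E8.5 (Srebf2), 0 differed at P90 against E13.5, and 1 was higher at P90 against E8.5 (Insig2). Srebf2, the SREBP that mainly drives cholesterol synthesis, read 301, 381 and 456 at E8.5, 231, 145 and 269 at E13.5, and 263, 182 and 227 at P90. The E8.5 arrays were above all 6 later ones, and the changes were -0.80 ± 0.35 (adjusted p = 0.162) at E13.5 and -0.72 ± 0.35 (adjusted p = 0.17) at P90, both against E8.5. Srebf1, whose products mainly drive fatty acid synthesis, read 577, 588 and 571 at E8.5, 1233, 848 and 799 at E13.5, and 1846, 825 and 501 at P90. Its E13.5 arrays were all above the E8.5 arrays, at 0.69 ± 0.46 (adjusted p = 0.375), while the P90 arrays lay on both sides of the embryonic ones.

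Insig1 and Insig2 encode the proteins that retain SCAP. Insig2 read 256, 350 and 290 at E8.5, 915, 127 and 439 at E13.5, and 2095, 734 and 464 at P90. All P90 arrays were above all E8.5 arrays, but the change of 1.55 ± 0.68 had an adjusted p of 0.126. A second Insig2 probe set, 1417980_a_at, read 122, 165 and 153, then 436, 142 and 331, then 1049, 627 and 378. Its change at P90 against E8.5 was 2.0 ± 0.48 (adjusted p = 0.0135 over all probe sets). The other kept Insig2 probe set, 1417982_at, gave 1.83 ± 0.64 there (adjusted p = 0.0641). Insig1, itself a target of SREBP, gave -0.16 ± 0.42 (adjusted p = 0.826), and Scap, the sterol-sensing escort, 0.03 ± 0.49 (adjusted p = 0.973).

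Of the 7 handling genes, Npc1, Abca1 and Apoe rose at P90 against E8.5 and 0 fell (10.9% of all genes rose and 12.5% fell). At E13.5 against E8.5, 1 of 7 rose and 0 fell (9.27% and 7.22% of all genes). At P90 against E13.5, 0 rose and 0 fell by limma (3.54% and 5.94%), with 1 higher and 0 lower at an unadjusted p under 0.05. Their median log2 change was 0.11 at E13.5 and 0.89 at P90, both relative to E8.5, and 0.48 between P90 and E13.5. By mean log2 signal 5 of 7 were highest at P90 and 0 were lowest there. Non-overlapping arrays were seen for 4 of 7 at E13.5 against E8.5 (3 higher and 1 lower, against 35.0% of all genes). Among the higher was Apoe, by 53.6 on E13.5 replicate 2 against 53.3 on E8.5 replicate 3. At P90, non-overlapping arrays were seen for 1 of 6 against E13.5 (22.3%) and for 3 of 6 against E8.5 (43.1%), all higher. The non-overlapping shares at P90 lie near those of all genes, while 3 of 7 called higher at P90 against E8.5 lies above 10.9%. On counts this small nothing is read about the handling genes as a group.

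**Figure D3:**
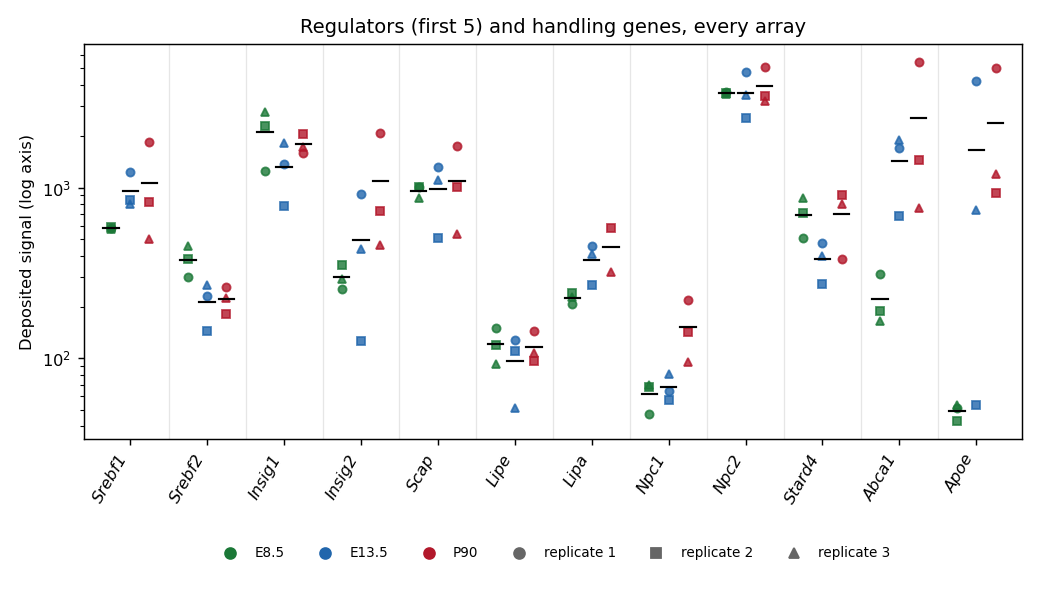
Deposited signal (log axis) of the 5 regulators and 7 handling genes, 1 point per array, with colour for stage, symbol for replicate and a black bar for the stage mean (1 array is missing for Lipa at P90). Abca1 and Apoe lie lowest at E8.5 (166 to 314 and 42.8 to 53.3) and spread widely at both later stages.

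Abca1, the transporter that loads cholesterol onto apolipoproteins outside the cell, was higher in both later stages. Its signal was 314, 189 and 166 at E8.5, 1716, 680 and 1889 at E13.5, and 5442, 1459 and 763 at P90. Every later array was above every E8.5 array, and E13.5 and P90 overlapped. The log2 change against E8.5 was 2.52 ± 0.66 at E13.5 (5.72-fold, adjusted p = 0.0226) and 3.00 ± 0.66 at P90 (8-fold, adjusted p = 0.00676). Both comparisons share the E8.5 arrays. Between P90 and E13.5 it was 0.48 ± 0.66 (adjusted p = 0.759), with a 95% interval from -0.96 to 1.93. The E13.5 call did not survive omission of any of 4 arrays, namely replicates 2 and 3 of E8.5 and replicates 1 and 3 of E13.5 (adjusted p up to 0.0965), and the P90 call was kept without each array in turn. A dim second probe set, 1421839_at, which stayed between 19.7 and 43.6, gave 0.10 at P90 against E8.5 (adjusted p = 0.827). With both probe sets averaged, the log2 change of Abca1 was 1.55 at P90 and 1.31 at E13.5, both still called.

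Apoe, the apolipoprotein that carries cholesterol between cells in nervous tissue, was near its lowest signal on all E8.5 arrays. It read 51.3, 42.8 and 53.3 at E8.5, 4217, 53.6 and 741 at E13.5, and 5017, 924 and 1208 at P90. Its E8.5 arrays lay together at a low signal, and E13.5 replicate 2 was at the same level. The log2 change was 4.79 ± 1.15 at P90 against E8.5 (27.6-fold, adjusted p = 0.0109), and it was kept without each array in turn. At E13.5 against E8.5 it was 3.22 ± 1.15 (adjusted p = 0.0821), and without E13.5 replicate 2 it was 4.78 (adjusted p = 0.00204). Apoe at P90 against E13.5 gave 1.57 ± 1.15 (adjusted p = 0.507).

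Npc1 and Npc2 pass cholesterol out of the lysosome together, and of the pair Npc1 rose. Npc1, the membrane protein, read 47.2, 68.4 and 69.7 at E8.5, 64.5, 57.1 and 81.2 at E13.5, and 219, 142 and 95.7 at P90. The P90 arrays were above all others, with a log2 change of 1.06 ± 0.32 against E8.5 (2.09-fold, adjusted p = 0.0314) and 0.95 ± 0.32 against E13.5 (adjusted p = 0.092). The call was lost without any 1 of the E8.5 arrays or without P90 replicate 1 or 2, with adjusted p up to 0.17. Npc2, the soluble partner, read 3637, 3563 and 3552 at E8.5, 4732, 2560 and 3498 at E13.5, and 5112, 3421 and 3228 at P90. Its change at P90 against E8.5 was 0.10 ± 0.32 (adjusted p = 0.868), with a 95% interval from -0.60 to 0.80.

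Lipa, the lysosomal acid lipase that frees cholesterol from its esters, depended on the probe set. Its brightest one read 209, 243 and 229 at E8.5, 457, 268 and 407 at E13.5, and 579 and 322 on replicates 2 and 3 at P90, replicate 1 being empty in the table. The change at P90 against E8.5, over 2 P90 arrays, was 0.89 ± 0.42 (adjusted p = 0.159). Another probe set, 1423140_at, had all values and read 42.9, 47.2 and 65.6, then 42, 96.4 and 65.1, then 1038, 302 and 159. On it Lipa was higher at P90 by 2.53 ± 0.56 against E8.5 (adjusted p = 0.00834) and by 2.26 ± 0.56 against E13.5 (adjusted p = 0.0311), with the first P90 array far above the others. The remaining kept probe set, 1423141_at, also with P90 replicate 1 empty, gave 0.89 ± 0.41 (adjusted p = 0.157) and 0.30 ± 0.41 (adjusted p = 0.769).

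Stard4 carries cholesterol through the cytosol, and Lipe hydrolyses esters in the cytosol. Stard4 read 505, 707 and 867 at E8.5, 476, 273 and 396 at E13.5, and 383, 904 and 807 at P90. All E13.5 arrays were below all E8.5 arrays, at -0.84 ± 0.43 (adjusted p = 0.232). On a dimmer probe set, 1429239_a_at, it read 108, 196 and 179, then 41.3, 31 and 37, then 48.2, 94.2 and 86. There the change at E13.5 against E8.5 was -1.72 ± 0.31 (adjusted p = 0.00389). The other kept Stard4 probe set, 1455011_at, gave -0.62 ± 0.64 for the same comparison (adjusted p = 0.602). Lipe stayed between 51.1 and 150 on all arrays and changed by -0.05 ± 0.35 at P90 against E8.5 (adjusted p = 0.941).

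Of the 29 genes, 17 had more than 1 kept probe set, 48 probe sets in all, and 12 had 1. With each of the 60 kept member probe sets tested on its own, 1 was higher and 1 lower at E13.5 against E8.5 (15.0% of all 24013 probe sets were called either way), 4 were higher at P90 against E13.5 (7.48%), and 8 were higher and 1 lower at P90 against E8.5 (20.8%). Dhcr7, Ebp, Npc1 and Apoe each have a single kept probe set, so none of their changes has a second reading on these arrays. On this scale Ebp at P90 against E13.5 was no longer called (adjusted p = 0.0549).

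**Figure D4:**
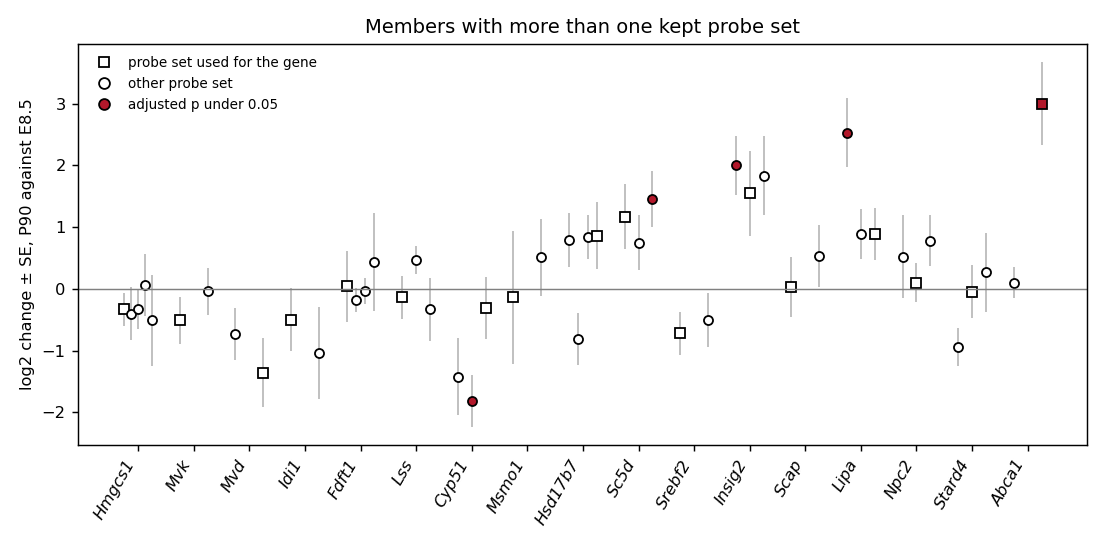
Log2 change ± SE at P90 against E8.5 for each kept probe set of the 17 genes with more than 1, squares being the brightest, used for the gene, and filled symbols having an adjusted p under 0.05 over all probe sets. All probe sets of Sc5d, Insig2, Scap, Lipa, Npc2 and Abca1 lie above 0, and all of Mvk, Mvd, Idi1, Cyp51 and Srebf2 below it. Sizes run from 0.89 to 2.53 for Lipa and from -1.81 to -0.31 for Cyp51.

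The arrays of a stage were not alike for these genes. At E8.5, replicate 1 had the lowest signal of its stage for 13 of 17 enzymes (76.5%, against 40.4% of all genes). At E13.5 this was replicate 2, for 14 of 16 (87.5%, against 61.4%), and at P90 replicate 1, for 12 of 17 (70.6%, against 28.5%). P90 replicate 1 was at the same time the highest of its stage for 9 of 11 regulators and handling genes (81.8%, against 54.4%), and replicate 2 was the highest for 12 of 17 enzymes (70.6%, against 33.4%). The median SD of the enzymes on the log2 scale within E8.5 was 0.34 (0.27 over all genes), within E13.5 it was 0.70 (0.48) and within P90 it was 0.57 (0.41).

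**Figure D5:**
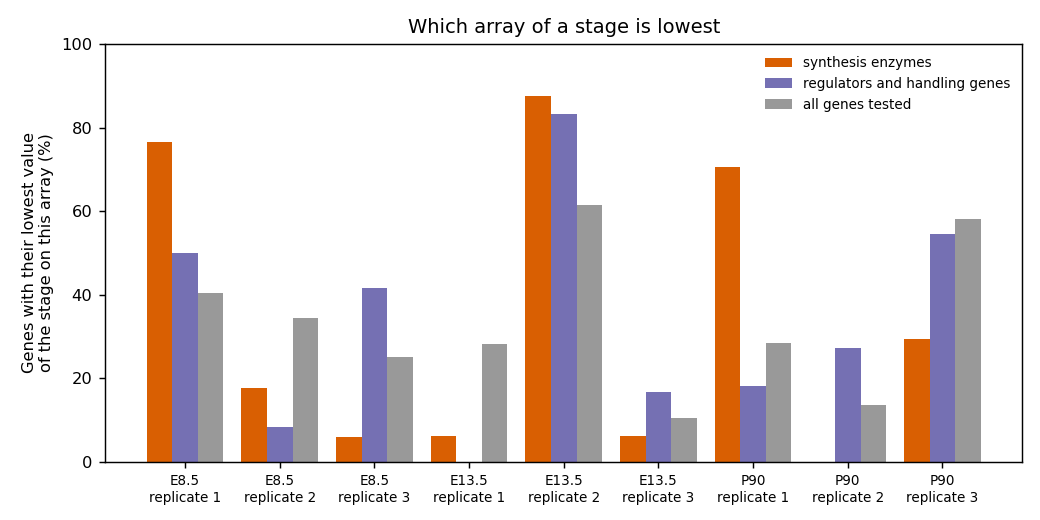
Share of genes (%) whose lowest value within a stage was on the given array, for synthesis enzymes (orange), regulators and handling genes (purple) and all genes tested (grey). The enzymes were lowest on E8.5 replicate 1 (76.5%), E13.5 replicate 2 (87.5%) and P90 replicate 1 (70.6%).

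Control probe sets at both ends of the Actb transcript can differ in signal where its RNA is shortened, but shortening itself was not measured. Their difference, the 3′ end over the 5′ end on the log2 scale, was 4.82, 2.05 and 2.39 on the E8.5 arrays, 0.85, 7.0 and 2.87 at E13.5, and 1.36, 4.09 and 3.51 at P90. It was thus the largest of its stage on the low array at E8.5 and E13.5, and the smallest on the low array at P90. Its part in the low enzyme signals was not tested. With the array of the largest difference left out in each stage, Dhcr7 kept both calls, Ebp and Npc1 lost theirs, and Apoe gained a call at E13.5 against E8.5 (4.81, adjusted p = 0.0155).

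Markers of cell types that the captures could hold were also read on each array. Summed signals of chromaffin markers (7 of 9 annotated, those with no empty cell) were 433 to 475 at E8.5, 1495 to 4043 at E13.5 and 12743, 27118 and 26033 at P90. P90 replicate 1, the highest P90 array for Dhcr7, Ebp, Insig2, Npc1, Abca1 and Apoe, was thus the lowest for chromaffin markers: Dbh, which makes noradrenaline, read 276 there against 3044 and 2871, and Pnmt, which makes adrenaline, 633 against 3749 and 3289. The same array was the highest of its stage for the adrenal cortex sum (8246, 4813 and 4168, from 100 to 198 at E8.5 and 201 to 1144 at E13.5), but that sum rests on 2 of 10 annotated markers and nearly all on Fdx1, the electron donor of steroid synthesis, at 8173, 4787 and 4152. Star, Cyp11b1, Cyp21a1, Hsd3b1 and Mrap, which define the cortex, were empty on all 3 P90 arrays, and Cyp11a1 read 73.2, 26.2 and 16.3. An empty cell cannot be read as a low signal. The chromaffin marker Th was empty on P90 replicate 1 beside 4441 and 4437, and the sensory neuron marker Pou4f1 on all 3 E13.5 arrays. Nr5a1, a transcription factor of steroid-making cells, read 31.5, 29.2 and 55.2 at E8.5, 177, 183 and 241 at E13.5, and 445 and 318 on replicates 2 and 3 at P90, with replicate 1 empty. The part of cortex in the changes at P90 was not tested.

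Other lists were also uneven across the arrays. Endothelial markers (5 of 7) summed to 296 to 882, 1037 to 1761 and, at P90, 3702, 579 and 892. Macrophage markers (6 of 12) summed to 1265 to 1858 at E8.5, 2036 to 2520 at E13.5 and 4306, 3616 and 2634 at P90. Csf1r was the brightest of them on every array, at 818, 989 and 1431, then 1518, 1811 and 1874, then 2131, 2195 and 1807. In the same sum C1qb read 37.7, 22.8 and 39.7, then 132, 114 and 78.7, then 1243, 759 and 305, while Adgre1 stayed between 257 and 537. Schwann and satellite glia markers (8 of 9) summed to 882 to 1720 at E8.5, 7419, 2600 and 3905 at E13.5 and 2193 to 2655 at P90. The E13.5 arrays ranked as they did for Apoe. Over all genes, however, E13.5 replicate 2 was the lowest of its stage for 61.4% and replicate 1 the highest for 45.9%, so nothing is read from this order. The part of these cell types in the changes of Abca1, Apoe, Npc1, Ebp and Dhcr7 was not tested. Adipocyte markers (5 of 7) stayed between 83 and 246 and yolk sac endoderm markers (9 of 10) between 152 and 422. Markers of cycling cells (7 of 7) summed to 11569 to 15472 at E8.5, 1519 to 3245 at E13.5 and 200 to 295 at P90. Neural crest markers (13 of 13) were at 5922 to 8060, 2278 to 4142 and 947 to 1043. Red cell markers (3 of 5) were at 529 to 3601, 245 to 765 and 28 to 42. Sensory neuron markers (4 of 12, with 8 empty somewhere at E13.5) were at 215 to 348, 4374 to 6826 and 383 to 3110. At P90 the sensory neuron sum was mostly Isl1 (88.9, 1876 and 1420) and Ntrk2 (207, 1060 and 604), with Ntrk3 and Runx3 at 41.1 to 103.

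A further 24 genes of cholesterol branches, uptake, efflux, transport and SREBP processing were read beside the members, of which 20 were tested. At E13.5 against E8.5, 1 rose and 1 fell, at P90 against E13.5, 1 rose and 0 fell, and at P90 against E8.5, 3 rose and 1 fell. Over all genes 9.27% rose and 7.22% fell in the first of these comparisons, 3.54% and 5.94% in the next, and 10.9% and 12.5% in the last, so that the counts lie near the background. Scarb1, the receptor for uptake of cholesterol from high-density lipoprotein, read 678, 408 and 513 at E8.5, 313, 302 and 272 at E13.5, and 7157 and 3295 at P90, where replicate 3 is empty in the table. Over these 8 arrays it rose by 3.97 ± 0.45 at P90 against E13.5 (adjusted p = 0.000444). Abcg1, an exporter that acts beside Abca1, read 22.6, 60.5 and 88.5, then 615, 271 and 591, then 1284, 771 and 491. Like Abca1 it was higher on every later array than on any E8.5 array, by 2.83 ± 0.50 at E13.5 (adjusted p = 0.00265) and 3.57 ± 0.50 at P90 (adjusted p = 0.000442). Lbr, a nuclear envelope protein with the same sterol reductase activity as Tm7sf2, read 2316, 3150 and 2982, then 1172, 523 and 1037, then 585, 643 and 470. It fell by 1.68 ± 0.39 at E13.5 (adjusted p = 0.0114) and by 2.28 ± 0.39 at P90 (adjusted p = 0.0015), both against E8.5.

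Across the arrays as a whole, median signals were 38.3 to 48.2, and 3 arrays per stage limit the precision of every value given. The F-test for any difference between stages called 5 of the 29 genes (Ebp, Dhcr7, Npc1, Abca1 and Apoe), against 26.3% of all genes.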

How the data were processed

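RNA of laser-captured cells was extracted with a PicoPure kit and labelled from 400 ng of total RNA, per the labels' protocols. Values deposited by the authors are linear intensities, 1 for each probe set on each array, as the numbers show. The submitters' processing notes name GCOS, MAS5, RMA and GCRMA with no role, and which made the table is not given in the sources used here. In all, 8048 of 405909 cells (1.98%) carried no value, and why is not stated. Of 45101 probe sets, 34945 had 1 gene symbol, 932 several and 9160 none, and 64 were controls. Only those with 1 symbol were used. Symbols were checked against RefSeq identifiers (34741 matched, 0 changed).

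Intensities were used as log2(signal + 16) with no further scaling, which understates changes of dim genes, and log2 changes and folds are on that scale. A probe set was kept if its signal passed 26.1, the 40th percentile, on at least 3 arrays, with at least 2 values per stage (24013 kept). The brightest per gene stood for the gene. Probe sets ending in _x_at or _s_at can bind several transcripts (used for Mvd, Fdft1, Lss, Hsd17b7, Lipa and Scarb1). Stages were compared in limma 3.58.1 (R 4.3.3; lmFit and trended eBayes with two-sided tests and 6 residual degrees of freedom), with Benjamini-Hochberg adjustment over 13748 genes. The fit was tested on simulated data.

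All 31 members are named; called ones have every array's value. Of the other pathway genes, up to 2 of the largest called rises and falls per comparison are named. The members, lists and markers were chosen with earlier results of these data known. Replicate numbers are shared by the stages, but deviations of same-numbered arrays correlated at -0.366 to 0.384, so they were not treated as pairs. Alternatives covered scaling, pseudocount, filter, empty cells, variance model, arrays in the fit, probe set choice, a replicate block and leaving out each array. Testing each probe set on its own, and dropping from every stage the array where the Actb ends differed most, were added after seeing the data.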

Additional observations from a re-analysis of the deposited data

How the results depend on the processing

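The 8 called member changes kept direction and call in 165 of 192 alternative values and lost the call in 27, with 0 reversed. Both changes of Dhcr7 (log2 2.12 to 2.68 against E13.5 and 1.79 to 2.75 against E8.5) and those of Abca1 (1.55 to 3.62) and Apoe (4.04 to 5.28) at P90 against E8.5 were called in all 24 alternatives. Ebp at P90 against E13.5 was called in 11 of 24. Of 1881 alternative values of uncalled changes, 22 became calls, and 119 took the opposite sign without a call. Those 22 belong to Pmvk, Sc5d, Insig2, Lipa, Npc2 and Apoe.

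Counts of called genes moved as follows. With the replicate block, regulators and handling genes called at E13.5 against E8.5 were 2 in place of 1, Apoe being added (3.22, adjusted p = 0.0265), synthesis enzymes called at P90 against E13.5 were 1 in place of 2, and no other count moved by over 1.5 times. With the array of the largest Actb difference left out, regulators and handling genes at E13.5 against E8.5 were 2, enzymes were 1 in both P90 comparisons, and members called by the F-test were 3 in place of 5. With only the arrays compared, enzymes at P90 against E13.5 were 1. Quantile normalization gave 6 regulators and handling genes in place of 3 at P90 against E8.5 and 8 members by the F-test, and averaging a gene's probe sets gave 5 in place of 3. Regulators and handling genes at P90 against E13.5 were 1 in place of 0 with only genes lacking empty cells or with the most variable probe set (Lipa in both cases). The causes of these moves were not tested. Leaving out 1 array at a time gave 0 enzymes and 0 to 2 regulators and handling genes at E13.5 against E8.5, 1 to 2 and 0 to 1 at P90 against E13.5, 1 to 2 and 2 to 4 at P90 against E8.5, and 1 to 6 members by the F-test. Over all genes, 2267, 1303 and 3209 were called in the order of the comparisons, 1487, 907 and 1895 with the Actb arrays left out, and 832 at P90 against E13.5 with only the arrays compared; leaving out 1 array gave 1273 to 2822, 583 to 1703 and 1955 to 3888. Without E13.5 replicate 2, the 2 enzymes called at P90 against E13.5 were Dhcr7, higher, and Pmvk, lower.

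With 3 arrays per stage, an enzyme change of -1.95 (Msmo1, E13.5 against E8.5) did not pass, so changes of that size were not always detectable. Dim genes such as Mvk and Npc1 lie near the filter, where the pseudocount shrinks changes.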

Other observations

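A set of 12 fatty acid genes that SREBP is known to activate were read as a neighbouring branch, and each was tested. At E13.5 against E8.5, 2 rose and 0 fell, at P90 against E13.5, 1 rose and 1 fell, and at P90 against E8.5, 3 rose and 2 fell, by limma with an adjusted p under 0.05. Over all genes, 9.27% rose and 7.22% fell, 3.54% rose and 5.94% fell, and 10.9% rose and 12.5% fell, in the same order. Me1, malic enzyme, which supplies NADPH for lipid synthesis, read 45.2, 80 and 92.1 at E8.5, 296, 80.7 and 133 at E13.5, and 3015, 1222 and 738 at P90. Every P90 array was above every earlier one, by 4.04 ± 0.56 against E8.5 (adjusted p = 0.000394) and 3.10 ± 0.56 against E13.5 (adjusted p = 0.0045). Acss2, which activates acetate, rose by 2.08 ± 0.60 at E13.5 (adjusted p = 0.0358) and by 2.92 ± 0.60 at P90 (adjusted p = 0.00472), both against E8.5. Elovl6, which lengthens fatty acids, read 957, 1056 and 1174 at E8.5, 1210, 390 and 1024 at E13.5, and 266, 411 and 284 at P90, and fell by 1.70 ± 0.45 at P90 against E8.5 (adjusted p = 0.0169). Pnpla3, a lipid droplet protein, rose by 0.90 ± 0.28 at E13.5 against E8.5 (adjusted p = 0.0462). It fell by 1.14 ± 0.28 at P90 against E13.5 (adjusted p = 0.0227), and P90 against E8.5 gave -0.24 ± 0.28 (adjusted p = 0.578).

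Fads1 and Fads2, the desaturases of long-chain polyunsaturated fatty acids, were singled out after their values were seen. Fads1 read 5748, 982 and 801 at P90 and Fads2 5720, 793 and 849, so that replicate 1 was far above its partners for both, as it was for Abca1. Neither was called at P90 against E8.5 (adjusted p = 0.536 and 0.314).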
